A study of Mus musculus with 12 samples.

Results

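Tumours labelled as lacking the DNA exonuclease TREX1 were compared with control tumours in mice that received isotype antibodies only. The comparison used 6 of the 12 RNA-seq libraries of the series, 3 labelled TREX1 KO-IgG (KO-IgG from here) and 3 labelled CTRL-IgG. It covered 13886 of the 23667 genes in the deposited table, namely those reaching 1 TPM (a transcript's share of the library, scaled for length) in 3 or more of the 12 libraries. The tumours grew in the mammary gland from 4T1, a line of mouse mammary carcinoma cells that forms metastasising tumours in BALB/c mice. Control cells and cells edited at Trex1 with CRISPR-Cas9 were each treated with isotype-matched antibodies (IgG) or with immune checkpoint blockade (ICB). The ICB animals received 200 µg of anti-PD1 and 100 µg of anti-CTLA4 3 times a week for 1 week, and IgG animals received the matching isotypes. Each group was labelled as 3 different tumours, and whether the edited cells were 1 clone or a pool is not given in the sources used here. Bulk RNA held tumour cells and host cells together, and only the tumour cells were edited.

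TREX1 degrades DNA in the cytosol. When it is missing, cytosolic DNA can activate the sensor cGAS, which makes the messenger cGAMP, and through the adaptor STING induces type I interferon. Type I interferon switches on interferon-stimulated genes such as Isg15, Ifit3 and Oasl1, and interferon gamma, made by NK and T cells, switches on an overlapping set that includes the MHC class II genes, immunity-related GTPases and Cxcl9. Values below are TPM in replicates 1, 2 and 3 of a group, in that order. Differences are KO-IgG minus CTRL-IgG on the log2(TPM + 1) scale, which understates the change of low genes, with the standard error (SE) of the limma fit.

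The 3 libraries labelled KO-IgG were not alike. Replicates 2 and 3 differed by a robust SD of only 0.0612 in their log2 ratio over 417 genes above 300 TPM, with 1 gene over 2-fold, while other pairs within a group differed by 0.216 to 0.598. KO-IgG 2 and 3 were therefore averaged and counted as 1 sample, as were KO-ICB 1 and 2 (0.0377 over 421 genes), which left 10 samples. By this measure KO-IgG 1 differed from KO-IgG 2 and 3 by 0.495 and 0.52, within the 0.372 to 0.598 seen between controls. It stood apart from both control and KO-IgG libraries in several markers of epithelium, which were near 0. Where KO-IgG 1 and the pair differ, the values of both are given. Between 12776 and 13169 genes reached 1 TPM in each of the 6 IgG libraries, and since only TPM values were used the read depth is unknown. With 10 samples the p-values measure the spread between tumours, pooled over all groups. Over 12 libraries that spread includes the near-identical libraries, which are counted as if they were independent tumours.

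Trex1 itself had more, not less, transcript where the label reads KO-IgG. Its level was 32.8, 44.0 and 46.2 TPM in CTRL-IgG and 56.0, 65.5 and 66.3 TPM in KO-IgG. The groups did not overlap, and the log2 difference was 0.57 ± 0.22 (SE; limma adjusted p = 0.85, 10 samples). An exact two-sided permutation test gave p = 0.1 both with the pair as 1 sample and over the 6 libraries, the smallest value either design can give. Under ICB the order was the same, with 36.2 to 45.7 TPM in CTRL and 56.2 to 72.2 TPM in KO. A small Cas9 deletion or insertion can leave a transcript in place and the host cells carry the intact gene, so a TPM value per gene does not check the label. Trex1 lies at chr9:109057933-109059734 on the minus strand (GRCm38, GENCODE M21), within the span of Atrip on the same strand, which encodes a partner of the checkpoint kinase ATR. Atrip stood at 9.43, 9.69 and 7.17 TPM in CTRL-IgG and at 13.6, 9.75 and 8.40 TPM in KO-IgG, and the groups overlapped. Reads of the shared stretch cannot be assigned with certainty. Among 89 tested genes within 2 Mb of Trex1, a window chosen after values were seen, 14 (15.7%) were higher in all 3 KO-IgG libraries than in all 3 CTRL-IgG libraries and 2 were lower, with a median log2 difference of 0.20. Over all genes those shares were 5.47% and 5.67%, and over chromosome 9 they were 8.56% and 2.90%. Relative to the median of each library, chromosome 9 as a whole stood at 0.30 in KO-IgG 1 and at 0.00 and 0.02 in the pair.

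Across all genes no single gene passed the test. With 10 samples limma called 0 of 13886 genes (0% of those tested) at an adjusted p under 0.05, 715 genes had an unadjusted p under 0.05, and the smallest adjusted p was 0.113. With the near-identical libraries counted separately, limma called 16 genes (0.115%), 6 higher and 10 lower, and 1401 genes had an unadjusted p under 0.05. Those 16 rest on that choice: without KO-IgG 2 limma called 0 genes and without KO-IgG 3 it called 1, Msln. The count over libraries also fell to 1 without CTRL-IgG 1 and to 10 without CTRL-IgG 3, and was 729 (295 higher, 434 lower) without KO-IgG 1. With 10 samples, leaving out the averaged KO-IgG pair gave 44 calls (20 higher, 24 lower).

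Counted without a test, 759 genes (5.47%) were higher in all 3 KO-IgG libraries than in every CTRL-IgG library, and 787 (5.67%) were lower in all 3. Of these, 164 were over 2-fold higher and 178 over 2-fold lower, and the median log2 differences were 0.58 and −0.57. The median over all genes was −0.03. KO-IgG 1 alone lay outside the CTRL-IgG range for 7094 genes, above it for 4472 (32.2%) and below it for 2622 (18.9%). Any single library lies outside the range of 3 others for many genes, so this count alone does not mark KO-IgG 1 as unusual. For 1477 genes KO-IgG 1 was above all controls while the pair was below them, and for 454 the opposite held. Leaving KO-IgG 1 out, 5880 genes did not overlap, 1843 higher (13.3%) and 4037 lower (29.1%), but the near-identical pair is in effect 1 sample. With the pair as its mean 1978 did not overlap (1042 higher, 936 lower). Because KO-IgG 2 and 3 are near-identical, separation of all 6 libraries is in effect separation of 2 samples from 3. If the labels had no meaning, a gene would be separated in a given direction in 1 of 20 splits of 3 against 3. For 2 against 3 it would be 1 of 10 splits, so the counts alone do not show a difference between the groups.

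Among genes separated in all 6 libraries, the 15 with the smallest p in the upward direction were led by products of NK and T cells. Ccl5, a chemokine that draws T and NK cells, stood at 24.1, 49.0 and 56.7 TPM in CTRL-IgG and at 232, 174 and 194 TPM in KO-IgG. Every KO-IgG library was above 3 times the highest control value, with a log2 difference of 2.32 ± 0.40 (limma adjusted p = 0.345 with 10 samples and 0.0397 over 12 libraries). Ifng, which encodes interferon gamma, was at 1.73, 2.77 and 1.47 TPM against 7.58, 6.99 and 7.56 TPM, a difference of 1.52 ± 0.31 (limma adjusted p = 0.476 and 0.0496). The 3 KO-IgG values of Ifng lay close together, KO-IgG 1 included. Ctsw, a cysteine protease of NK and cytotoxic T cells, was at 6.84, 5.73 and 7.79 TPM against 18.4, 23.4 and 21.8 TPM (1.47 ± 0.25; limma adjusted p = 0.345 and 0.0331). Klrd1, the CD94 subunit of NK receptors, was at 9.04, 7.06 and 4.53 TPM against 46.9, 19.3 and 16.6 TPM, and Cd3g, a subunit of the T cell receptor complex, at 10.6, 12.6 and 9.04 TPM against 61.4, 26.8 and 27.7 TPM. For both genes KO-IgG 1 was the highest library by more than 2-fold. Ms4a4b, a membrane protein of T and NK cells from a multigene family, showed the same order, with 10, 14.4 and 7.65 TPM against 76.6, 27.5 and 28.5 TPM. In bulk tissue more cells of a type and more RNA per cell cannot be told apart.

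Interferon-responsive and complement genes made up a second set. Ubd, a ubiquitin-like modifier induced by interferon gamma and TNF, had the largest difference of the 15, 2.47 ± 0.43, with 18.4, 37.4 and 18.2 TPM against 165, 112 and 103 TPM (limma adjusted p = 0.345 and 0.0397). Uba7, the activating enzyme for the ubiquitin-like protein ISG15, was at 41.2, 54.7 and 43.3 TPM against 98.6, 107 and 100 TPM (1.12 ± 0.21; limma adjusted p = 0.392 and 0.0397). All 3 KO-IgG libraries were close to 100 TPM. Uba7 lies at chr9:107975505-107984060, within 2 Mb of Trex1. Cfb, complement factor B, was at 53.8, 65.1 and 59.1 TPM against 136, 123 and 110 TPM (1.07 ± 0.22; limma adjusted p = 0.476 and 0.0528).

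The remaining genes of the 15 had less in common. Septin1, a cytoskeletal GTPase abundant in lymphocytes, was at 4.59 to 10.3 TPM in CTRL-IgG and at 30.1, 22.5 and 20.2 TPM in KO-IgG. Tbc1d10c, which encodes the lymphocyte signalling inhibitor carabin, was at 2.67 to 3.09 TPM against 12.7, 9.85 and 7.03 TPM. Lax1, a membrane adaptor of lymphocytes, was at 0.375 to 0.681 TPM against 4.00, 2.69 and 1.52 TPM. For these 3 lymphocyte genes KO-IgG 1 was again the highest library. Thap3, a zinc finger protein, was at 19.7, 23.3 and 23.7 TPM against 46.3, 50.1 and 45 TPM (1.05 ± 0.21; limma adjusted p = 0.476 and 0.0485). Rpgrip1, known from photoreceptor cilia, was at 0.0291 to 0.322 TPM against 1.68, 2.65 and 2.54 TPM. Rps13-ps1, a ribosomal protein pseudogene whose reads may come from Rps13, was listed at 0 in every CTRL-IgG library and at 3.57, 2.03 and 1.28 TPM in KO-IgG.

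**Figure D1:**
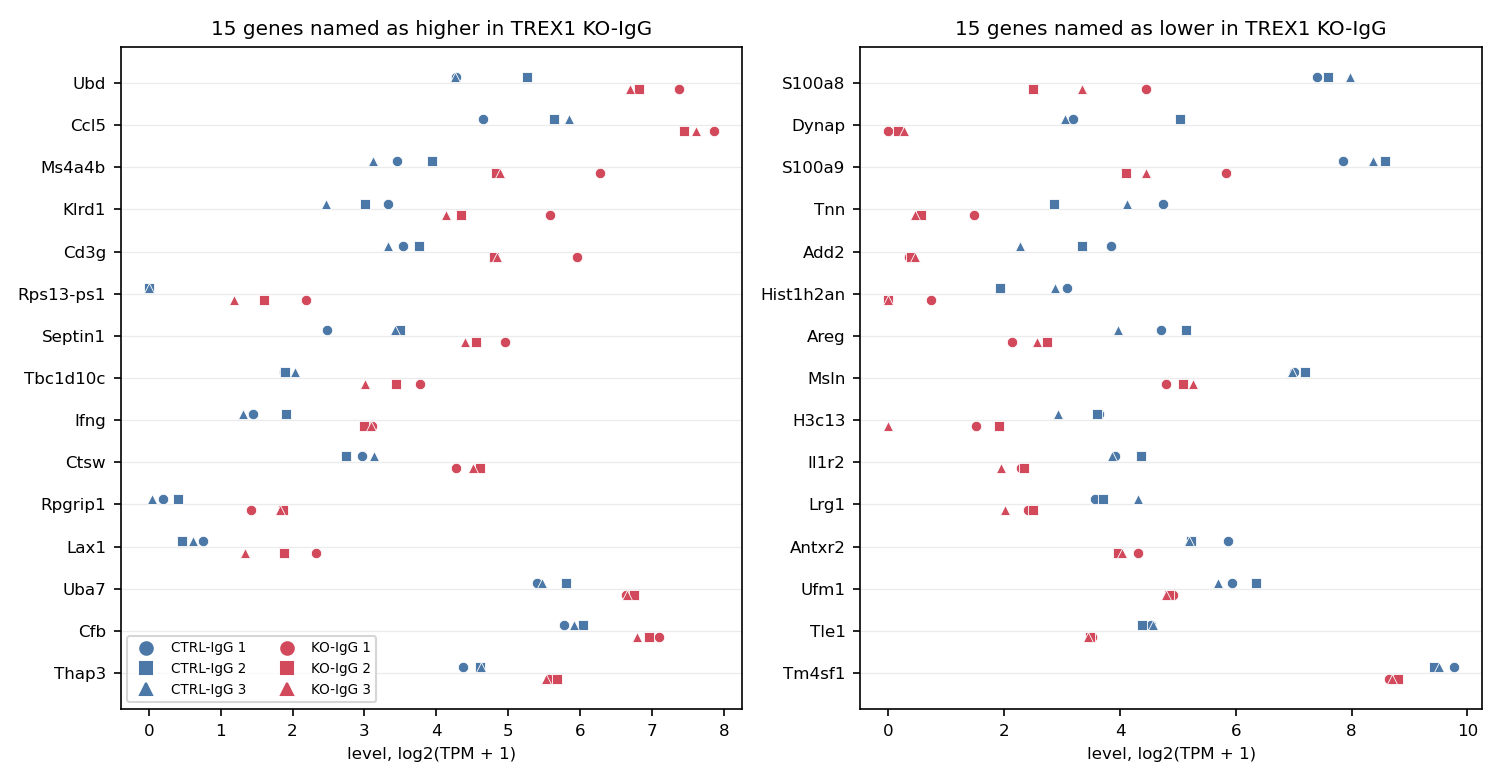
Levels of 30 genes in the 6 isotype libraries on the log2(TPM + 1) axis, the 15 higher and the 15 lower genes with the smallest p among those whose groups do not overlap; colour gives the group and marker shape the replicate. The squares and triangles of KO-IgG 2 and 3 nearly coincide, and for Klrd1 and Cd3g the circle of KO-IgG 1 lies above them.

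In the downward direction the gene with the smallest p was Msln, mesothelin, a surface glycoprotein of mesothelium and many carcinomas. It stood at 128, 145 and 125 TPM in CTRL-IgG (132 ± 10.7, SD, n = 3) and at 26.6, 33.0 and 37.4 TPM in KO-IgG (30.9 ± 6.1, SD, n = 2 with the pair averaged). KO-IgG 1 and the pair were alike for it, and the difference was −2.08 ± 0.25 (limma adjusted p = 0.113 with 10 samples and 0.006 over 12 libraries). Msln is at chr17:25748613-25754378. Growth factor, membrane and transcription genes followed. Areg, the EGF receptor ligand amphiregulin, was at 25.1, 34.3 and 14.6 TPM against 3.37, 5.71 and 4.91 TPM (−2.21 ± 0.48; limma adjusted p = 0.498). Tm4sf1, a tetraspanin-like membrane protein, was abundant, with 868, 689 and 725 TPM against 400, 447 and 415 TPM (−0.86 ± 0.18; limma adjusted p = 0.484 and 0.0496). Tle1, a Groucho family corepressor, had narrow values in both groups, 22.2, 19.7 and 22.6 TPM against 10.4, 10.2 and 9.91 TPM (−1.0 ± 0.20; limma adjusted p = 0.476 and 0.0397). Antxr2, a receptor of anthrax toxin, was at 35.5 to 57.4 TPM against 18.9, 14.6 and 15.4 TPM.

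Genes of neutrophils were prominent among the lower genes. S100a8 and S100a9 encode the subunits of calprotectin, the main cytosolic protein of neutrophils. S100a8 was at 169, 192 and 249 TPM in CTRL-IgG and at 20.7, 4.65 and 9.13 TPM in KO-IgG (−3.95 ± 0.64; limma adjusted p = 0.345 and 0.0336). S100a9 was at 230, 381 and 331 TPM against 55.7, 16.2 and 20.8 TPM (−3.21 ± 0.68; limma adjusted p = 0.504 and 0.0528). Within KO-IgG, replicate 1 was the highest for both and still below every control. Il1r2, a decoy receptor for interleukin 1 carried by neutrophils, was at 14.1, 19.6 and 13.6 TPM against 3.87, 4.09 and 2.85 TPM (−1.83 ± 0.29; limma adjusted p = 0.345 and 0.0331). Lrg1, a glycoprotein stored in neutrophil granules and made by liver and endothelium, was at 10.9 to 18.9 TPM against 4.29, 4.64 and 3.02 TPM.

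The other lower genes covered matrix, cytoskeleton and histones. Tnn, the matrix protein tenascin N, was at 25.6, 6.24 and 16.4 TPM against 1.79, 0.484 and 0.372 TPM (−2.91 ± 0.54; limma adjusted p = 0.396 and 0.0397). Add2, the membrane skeleton protein beta-adducin, was at 13.3, 9.09 and 3.84 TPM against 0.283, 0.314 and 0.366 TPM (−2.76 ± 0.47; limma adjusted p = 0.345 and 0.0397). In TPM both differed by more between controls than between KO-IgG libraries. Dynap, a membrane protein, was at 7.32 to 31.7 TPM against 0, 0.125 and 0.209 TPM, and Ufm1, a ubiquitin-like modifier, at 50.5 to 80.0 TPM against 29.1, 27.6 and 26.6 TPM. The histone genes Hist1h2an and H3c13 were at 2.78 to 7.48 TPM and 6.64 to 11.5 TPM in the controls, and both were listed at 0 in at least 1 KO-IgG library. Histone copies are near-identical and most of their transcripts lack a poly(A) tail, so their values in polyA libraries are uncertain.

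Gene lists were then described by counts over members that passed the filter on low values, 561 of 614 in all; a member can pass through 1 group alone, so these counts describe and do not test. Interferon-stimulated genes separated KO-IgG 1 from the pair. Of 41 tested genes of the type I interferon list, 4 (Oasl1, Mx1, Ifit2 and Uba7) were higher in all 3 KO-IgG libraries and 0 were lower, against the 5.47% and 5.67% of all genes. In the pair, 30 of the 41 were above every CTRL-IgG library, with a median difference of 1.23, while KO-IgG 1 was above the controls for 5 and below them for 5, with a median of −0.11. Over all genes the pair was above every control for 13.3% and below for 29.1%, and KO-IgG 1 was above for 32.2% and below for 18.9%. Isg15, a secreted and protein-linked ubiquitin-like modifier, was at 132, 143 and 213 TPM in the controls, 140 TPM in KO-IgG 1 and 709 and 730 TPM in the pair. Irf7, the transcription factor that amplifies interferon production, was at 87.2 to 95.3 TPM, 81.2 TPM and 379 and 386 TPM. For both genes the pair was above 3 times the highest control and KO-IgG 1 lay in or below the control range. Usp18, the protease that removes ISG15 and damps interferon signalling, was at 31.0 to 66.5 TPM in the controls, 16.8 TPM in KO-IgG 1 and 140 and 137 TPM in the pair. Oasl1, a member of the oligoadenylate synthetase family, was at 12.1 to 14.4 TPM, 15.9 TPM and 41.6 and 41.2 TPM, and Ifit2, which binds foreign RNA, at 8.74 to 16.8 TPM, 25.2 TPM and 30.1 and 27.9 TPM. KO-IgG 1 was only just above the controls for Oasl1 and clearly above them for Ifit2.

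Promoters are shown for 4 genes that carry the core letters of the interferon-stimulated response element, which was a condition of the choice. Among such type I list members, Isg15, Ifit3 and Ddx60 had the largest difference between the pair and the controls. Igtp had the smallest p among such interferon gamma list members that were higher in all 3 KO-IgG libraries. Ifit3 and Ddx60, both antiviral RNA-binding factors, were at 19.6 to 29.7 TPM and 5.89 to 25.9 TPM in the controls, at 25.2 and 11.2 TPM in KO-IgG 1, and at 92.7 and 38.4 TPM in KO-IgG 2. Igtp, an immunity-related GTPase induced chiefly by interferon gamma, was higher in all 3 KO-IgG libraries. Capitals mark GAAANNGAAA or its reverse complement TTTCNNTTTC, overlapping matches included, in the 250 bases before and 50 after the start from RefSeq (GRCm38.p6), written 5′ to 3′ on the gene's strand. The windows are chr4:156200769-156201068 (minus strand, 3 matches), chr19:34583279-34583578 (plus, 2 matches), chr8:61927837-61928136 (plus, 2 matches) and chr11:58199306-58199605 (plus, 1 match).
Isg15: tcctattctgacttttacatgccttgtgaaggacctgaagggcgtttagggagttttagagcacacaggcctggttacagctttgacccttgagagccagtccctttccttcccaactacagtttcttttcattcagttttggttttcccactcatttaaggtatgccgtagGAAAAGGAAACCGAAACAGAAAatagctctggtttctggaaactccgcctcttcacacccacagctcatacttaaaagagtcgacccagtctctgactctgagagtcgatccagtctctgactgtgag
Ifit3: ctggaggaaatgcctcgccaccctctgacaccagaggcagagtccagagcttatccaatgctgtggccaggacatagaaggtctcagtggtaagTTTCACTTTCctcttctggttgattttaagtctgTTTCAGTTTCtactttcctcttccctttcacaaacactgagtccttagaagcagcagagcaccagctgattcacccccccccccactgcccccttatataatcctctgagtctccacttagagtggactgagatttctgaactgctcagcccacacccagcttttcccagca
Ddx60: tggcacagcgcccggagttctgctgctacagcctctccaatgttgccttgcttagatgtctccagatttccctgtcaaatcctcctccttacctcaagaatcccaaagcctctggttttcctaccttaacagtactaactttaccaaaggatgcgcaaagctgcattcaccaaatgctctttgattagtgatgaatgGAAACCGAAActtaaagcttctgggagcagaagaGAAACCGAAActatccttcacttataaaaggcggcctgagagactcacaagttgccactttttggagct
Igtp: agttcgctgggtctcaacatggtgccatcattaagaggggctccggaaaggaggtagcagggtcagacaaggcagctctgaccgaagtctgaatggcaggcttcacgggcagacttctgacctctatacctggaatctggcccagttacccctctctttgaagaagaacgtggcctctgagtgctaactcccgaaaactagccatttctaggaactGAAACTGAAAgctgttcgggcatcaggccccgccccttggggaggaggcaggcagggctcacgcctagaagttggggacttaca
The motif was in 1079 of 27025 promoters of this length (3.99%). Only 30 of 42 members of the type I list and 17 of 27 of the interferon gamma list had a promoter in the table, so a check over either list is void. Of those present, 18 and 11 held the motif. In lists with nearly all promoters present it was in 5 of 18 MHC class I genes, 2 of 13 cytotoxic genes, 1 of 11 NK genes and 0 of 13 neutrophil genes. A match describes the letters and does not show a bound site.

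**Figure D2:**
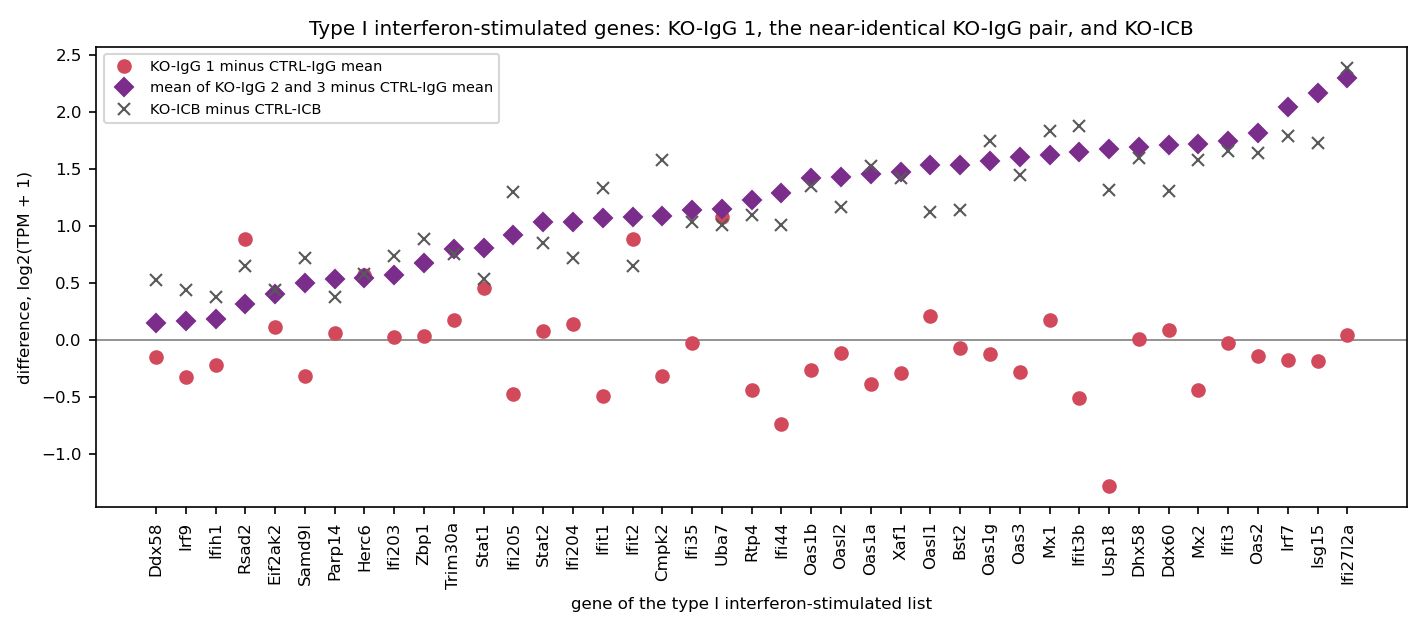
Difference from the CTRL mean, on the log2(TPM + 1) axis, of the 41 type I interferon-stimulated genes in KO-IgG 1, in the mean of KO-IgG 2 and 3, and in KO-ICB. The pair (median 1.23) and KO-ICB (median 1.14) lie mostly above 0, and KO-IgG 1 (median −0.11) is spread around 0.

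The interferon gamma-induced genes behaved otherwise, since the list medians of KO-IgG 1 and the pair were both positive. Of 27 tested, 11 were higher in all 3 KO-IgG libraries and 0 were lower, against 5.47% and 5.67% of all genes. Those shares also apply to the same counts of the lists below. The median difference was 0.66 (0.76 in KO-IgG 1 and 0.49 in the pair). KO-IgG 1 was above every control for 20 and below for 0 (32.2% and 18.9% of all genes). The pair was above for 12 and below for 2 (13.3% and 29.1% of all genes). Igtp was at 169, 142 and 104 TPM against 246, 348 and 341 TPM (1.10 ± 0.26; limma adjusted p = 0.516). Gbp8, a guanylate-binding protein, was at 11.2 to 19.4 TPM against 36.6, 26.7 and 28.2 TPM. CTRL-IgG 2 was the highest control for Cxcl9 and Cxcl10, which attract T and NK cells through CXCR3. Cxcl9 overlapped between groups, and for Cxcl10 the lowest KO-IgG value was only just above that control. Cxcl9 was at 49.8, 98.6 and 42.7 TPM against 234, 94.1 and 91.6 TPM, and Cxcl10 at 63.7, 112 and 52.6 TPM against 143, 113 and 118 TPM.

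Antigen presentation by MHC class II separated the groups in nearly the whole list. Of 12 genes, 10 were higher in all 3 KO-IgG libraries and 0 were lower, with a median difference of 0.86, 0.78 in KO-IgG 1 and 0.76 in the pair. H2-Ab1, the beta chain of I-A, was at 1070, 1290 and 1350 TPM in CTRL-IgG and at 2690, 2600 and 2510 TPM in KO-IgG (1.09 ± 0.28; limma adjusted p = 0.541). H2-Eb1, the beta chain of I-E, was at 1230, 1430 and 1610 TPM against 3270, 3100 and 2970 TPM, and H2-Aa, the alpha chain of I-A, at 1550 to 1680 TPM against 3200, 2820 and 2740 TPM. The KO-IgG values of these chains were all above the highest control, with KO-IgG 1 as high as the pair. Ciita, the master regulator of class II transcription, was at 19.5, 16.9 and 16.3 TPM against 30.1, 26.8 and 24.4 TPM. H2-Oa, a chain of the peptide-loading modulator H2-O, differed within KO-IgG, at 2.27 to 4.02 TPM in the controls, 4.74 TPM in KO-IgG 1 and 25.6 and 23.2 TPM in the pair. The H2 genes are near-identical copies in part, so reads may be shared among them.

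For MHC class I, 11 of 21 genes were higher in all 3 KO-IgG libraries and 0 lower, with a median difference of 0.36, 0.32 in KO-IgG 1 and 0.57 in the pair. Psmb9, a catalytic subunit of the immunoproteasome, was at 254, 263 and 245 TPM against 373, 467 and 468 TPM (0.72). Tap1, the peptide transporter, was at 125 to 170 TPM against 203, 264 and 246 TPM, and Nlrc5, the class I transactivator, at 33.3 to 55.4 TPM against 66.1, 102 and 102 TPM. B2m, the invariant light chain, overlapped, with 6850, 6430 and 4910 TPM against 6240, 6560 and 6510 TPM. Components of nucleic acid sensing were less separated: 4 of 24 were higher in all 3 and 0 lower, with a median of 0.28. Sting1 was at 53.8, 62.8 and 81.1 TPM against 81.8, 83.8 and 106 TPM, so the lowest KO-IgG value was only just above the highest control. Cgas was at 4.88 to 5.09 TPM in the controls, 9.23 TPM in KO-IgG 1 and 4.08 and 3.51 TPM in the pair, so KO-IgG 1 and the pair lay on opposite sides of the controls.

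NK cell markers were higher in nearly all members tested. Of 10 that passed the filter among 13, 9 were higher in all 3 KO-IgG libraries, and the summed TPM of the list was 57.7, 47.5 and 29.6 in CTRL-IgG and 138, 100 and 90.7 in KO-IgG. Ncr1, the NK receptor NKp46, was at 2.74, 2.31 and 0.888 TPM against 4.39, 10.1 and 8.94 TPM. For Ncr1 the pair was higher than KO-IgG 1, while for Klrk1, which encodes NKG2D, KO-IgG 1 was the highest at 38.5 TPM against 20.3 and 16.3 TPM in the pair and 7.96 to 10.7 TPM in the controls. T cell markers were separated in 11 of 22 genes, all higher, and the list sum was 232, 250 and 315 TPM against 537, 327 and 321 TPM. The sum in the pair was thus near the highest control and only KO-IgG 1 stood well above. Lck, the proximal T cell receptor kinase, was at 4.93 to 9.30 TPM against 26.1, 17.6 and 17.8 TPM, and Cd8b1 at 2.76 to 5.72 TPM against 18.9, 7.79 and 8.38 TPM. Cd4 overlapped, at 1.00 to 1.94 TPM against 7.24, 2.63 and 1.62 TPM, and none of the 6 regulatory T cell genes tested was separated.

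Effector genes of cytotoxic cells were mixed. Of 14 tested, 9 had a positive and 5 a negative difference, and 5 were higher in all 3 KO-IgG libraries and 0 lower. The pair was above every control for 7 and below every control for 4. Over all genes those shares were 13.3% and 29.1%, so the lower count is near the share of all genes. Gzmb, granzyme B, was at 16.3, 28.5 and 7.2 TPM against 75.8, 63.6 and 64.5 TPM, and Nkg7, a granule membrane protein, at 17.7, 16.7 and 11.4 TPM against 63.1, 38.2 and 28.7 TPM. Gzmc, a granzyme related in sequence to Gzmb, was at 21.9 to 55.2 TPM in the controls, 23.5 TPM in KO-IgG 1 and 198 and 186 TPM in the pair, so it was high in the pair and not in KO-IgG 1. Gzmd and Gzmf, 2 more granzymes of the same family, showed the reverse. Gzmd was at 45.3, 17.3 and 19.0 TPM in the controls, 39.9 TPM in KO-IgG 1 and 10.1 and 7.15 TPM in the pair, and Gzmf at 35.6, 12.1 and 3.57 TPM, 31.2 TPM and 1.92 and 2.43 TPM. For both the pair was below every control and KO-IgG 1 within their range. Among 10 checkpoint genes, 3 were higher in all 3: Lag3 was at 4.18 to 4.53 TPM against 18, 9.61 and 7.99 TPM, and Pdcd1, which encodes PD-1, at 3.60 to 4.95 TPM against 15, 5.82 and 5.17 TPM. Of 13 lymphocyte-attracting chemokines and receptors, 5 were higher in all 3 and 0 lower. Xcl1, the chemokine through which NK and T cells attract cross-presenting dendritic cells, was at 0.612, 6.58 and 7.12 TPM against 7.73, 37.7 and 34.4 TPM, and its receptor gene Xcr1 was at 0.338 to 0.531 TPM against 3.18, 1.11 and 1.09 TPM. KO-IgG 1 was the lowest of the 3 for Xcl1 and the highest for Xcr1.

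Mast cell and basophil genes split by member. Of 13 tested, 6 were higher in all 3 KO-IgG libraries and 1, Mcpt8, was lower. Fcer1a, which encodes the IgE-binding chain of the high-affinity receptor, was at 3.51, 4.04 and 4.58 TPM against 16.3, 9.93 and 11.7 TPM. Gata2, a transcription factor of both lineages, was at 1.59 to 1.77 TPM against 6.86, 4.27 and 5.01 TPM, and Cpa3, a mast cell protease, at 26.7, 14.6 and 15.8 TPM against 58.5, 27.2 and 31.7 TPM. Mcpt8, a protease that marks mouse basophils, was at 20.9, 6.75 and 22.8 TPM against 1.76, 4.19 and 4.66 TPM. Fcer1a, Gata2 and, only just, Cpa3 were thus higher and the basophil protease lower in every KO-IgG library, while 6 of the 13 members overlapped. The complement list had 4 of 13 genes higher in all 3 and 0 lower, among them C4b, at 31.5 to 40.9 TPM against 92.0, 181 and 172 TPM (1.81 ± 0.41; limma adjusted p = 0.516).

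Neutrophil and inflammatory genes lay in the other direction. Of 11 neutrophil genes tested, 5 were lower in all 3 KO-IgG libraries and 0 higher, with a median difference of −1.20, −1.11 in KO-IgG 1 and −0.85 in the pair. Cxcr2, the neutrophil chemokine receptor, was at 4.50, 3.62 and 2.06 TPM against 1.08, 0.871 and 0.455 TPM. Lcn2, a siderophore-binding protein also made by epithelium, was at 1120, 729 and 753 TPM against 508, 1090 and 1050 TPM, so KO-IgG 1 was below the controls and the pair was within their range. The summed TPM of the list, to which Lcn2 contributes most, was 1720, 1460 and 1680 in CTRL-IgG and 640, 1250 and 1220 in KO-IgG. Of 15 inflammatory cytokine genes, 5 were lower in all 3 and 0 higher. Il1b was at 148, 141 and 119 TPM against 85.6, 62.5 and 59.8 TPM, and Il1a at 14.4 to 19.7 TPM against 4.83, 6.82 and 6.89 TPM. Ptgs2, cyclooxygenase 2, was at 23.4, 46.8 and 11.2 TPM against 9.73, 5.63 and 6.54 TPM. None of the 15 macrophage genes was separated, and the list median was 1.09 in KO-IgG 1 and −0.56 in the pair. Adgre1, which encodes F4/80, was at 21.3 to 27.6 TPM in the controls, 83.7 TPM in KO-IgG 1 and 11.5 and 16.2 TPM in the pair. KO-IgG 1 was thus above and the pair below every control.

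Fibroblast and matrix genes had negative medians both in KO-IgG 1 (−1.23) and in the pair (−1.21). Of 19 tested, 5 were lower in all 3 KO-IgG libraries, 0 were higher and 14 overlapped. The controls were uneven, with list sums of 2500, 1190 and 4300 TPM against 856, 994 and 964 TPM in KO-IgG, and over 12 libraries the list median of −1.11 became −0.63 without CTRL-IgG 3. Col3a1, a fibrillar collagen, was at 373, 157 and 799 TPM against 75.3, 69.1 and 73.8 TPM, and Fbln1, the matrix protein fibulin 1, at 7.21, 5.48 and 10.7 TPM against 1.33, 2.55 and 1.79 TPM. The KO-IgG values of Col3a1 lay within 10 TPM of each other while the controls spanned 157 to 799 TPM. Col1a1 was at 552, 185 and 878 TPM against 92.9, 165 and 162 TPM, so CTRL-IgG 2 was only just above the pair. Of 11 metalloproteinase and inhibitor genes, 4 were lower in all 3 and 0 higher. Timp1, an inhibitor of matrix metalloproteinases, was at 158, 255 and 224 TPM against 104, 117 and 108 TPM, and Mmp3, stromelysin 1, at 169, 243 and 95.7 TPM against 47.2, 59.9 and 64.3 TPM. Among 11 heat shock genes 5 were lower in all 3 and 0 higher. The inducible chaperone gene Hspa1b was at 45.7 to 109 TPM against 6.03, 26.9 and 28.3 TPM, and its near-identical copy Hspa1a at 5.91 to 6.29 TPM against 1.86, 0.404 and 1.32 TPM.

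Transcripts of the mitochondrial genome were higher in KO-IgG. Of 13 tested, 11 were higher in all 3 libraries and 0 lower, with a median difference of 1.02, 0.81 in KO-IgG 1 and 1.03 in the pair. mt-Co2, a subunit of cytochrome c oxidase, was at 1320, 2320 and 534 TPM against 2870, 5390 and 4430 TPM, and mt-Nd6, a complex I subunit, at 346, 737 and 491 TPM against 1450, 1170 and 1130 TPM. Under ICB only 2 of the 13 were higher in all 3 KO libraries, near the 15.2% of all genes, with a median difference of 0.20. The mitochondrial share of all TPM was 2.59% to 4.74% in CTRL-IgG and 6.0%, 7.34% and 7.53% in KO-IgG. In CTRL-ICB it was 3.63% to 4.03%, and in KO-ICB 5.65%, 5.5% and 3.55%. This share can move with RNA quality, and the part that RNA quality has in any difference described here was not tested. Nuclear-encoded cytosolic ribosomal genes had a median of −0.09 (−0.23 in KO-IgG 1 and 0.00 in the pair), with 6 of 34 lower in all 3. None of the 20 cell cycle genes was separated in all 6 libraries. KO-IgG 1 was above every control for 18 of them, with a median of 0.47, against 32.2% and 0.09 over all genes. The pair was below every control for 8, with a median of −0.16, against 29.1% and −0.15 over all genes. The pair's median for this list was thus that of all genes.

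Several other lists showed few separated genes or opposite values in KO-IgG 1 and the pair. Dendritic cell genes had 4 of 10 higher in all 3 KO-IgG libraries and 0 lower, with medians of 0.81 in KO-IgG 1 and 0.12 in the pair. Myeloid-attracting chemokines had none of 11 separated. Ccl8, a monocyte chemokine, was at 125 to 1140 TPM in CTRL-IgG, at 3400 TPM in KO-IgG 1 and at 331 and 358 TPM in the pair, and Csf1, the macrophage growth factor, at 73.4 to 163 TPM against 130 and then 35.0 and 33.1 TPM. The pair was thus below every control for Csf1 and within the controls for Ccl8. None of 12 endothelial genes was separated, with medians of 0.53 and −0.60. Of 20 hypoxia and glycolysis genes 1 was lower in all 3, Pgk1, a glycolytic kinase, a share near the 5.67% of all genes. Of 13 p53 target genes 3 were lower in all 3. Among them was Cdkn1a, which encodes the cell cycle inhibitor p21, at 34.6, 47.5 and 36.1 TPM against 26.2, 31.1 and 26.9 TPM. Only 4 of 12 B and plasma cell genes passed the filter, with medians of 2.32 in KO-IgG 1 and −0.23 in the pair.

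**Figure D3:**
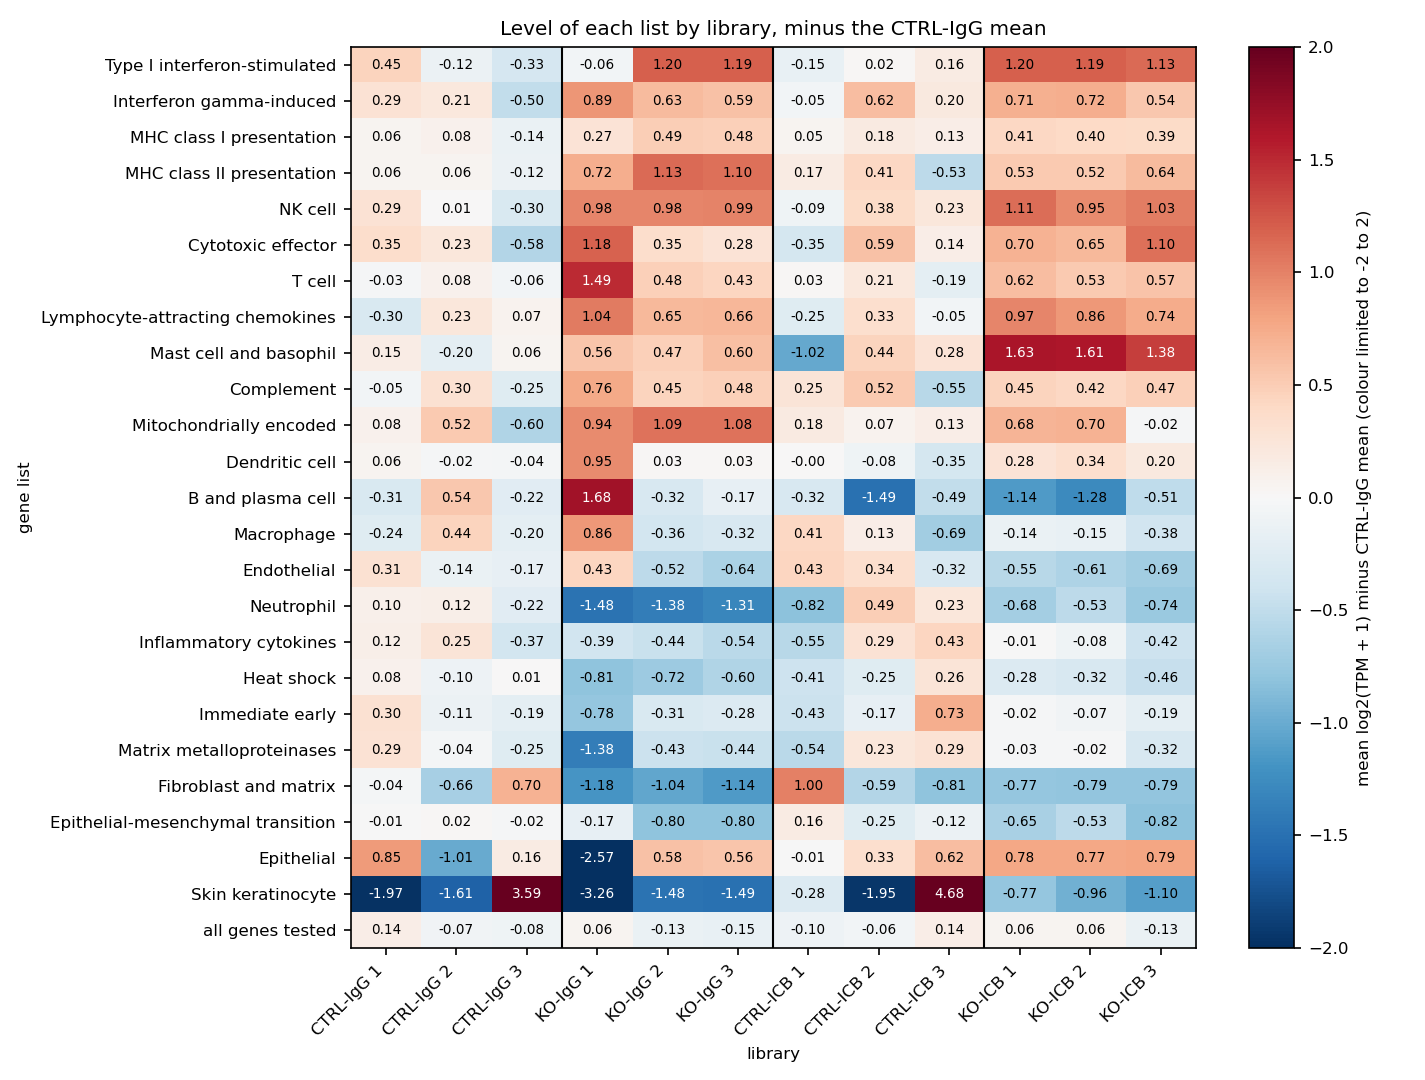
Mean log2(TPM + 1) of 24 gene lists and of all genes in each of the 12 libraries, as the difference from the CTRL-IgG mean. KO-IgG 1 is low for the epithelial list (median difference −2.37) and high for the macrophage list (1.09), where the pair has the opposite sign (0.51 and −0.56).

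Epithelial genes, which mark the 4T1 tumour cells, were lower in KO-IgG 1 than in the controls, some of them near 0, and most were not lower in the pair. All 22 epithelial genes were below every CTRL-IgG library in KO-IgG 1, against 18.9% of all genes, with a median of −2.37. The median of the pair was 0.51. The pair was above every control for 6 and below for 2, Msln among the lower (13.3% and 29.1% of all genes). Epcam, the pan-epithelial adhesion molecule, was at 1110, 87.1 and 602 TPM in the controls, 0.661 TPM in KO-IgG 1 and 1100 and 1090 TPM in the pair. CTRL-IgG 2 was also low for it, the lowest of the controls. Esrp1, a regulator of epithelial splicing, was listed at 0 in KO-IgG 1 and stood at 43.8 and 42.8 TPM in the pair. The tight junction gene Cldn4 was at 9.07 TPM against 480 and 475 TPM. The basal keratin gene Krt14, which is in the skin keratinocyte list and not in this one, was at 0.148 TPM against 307 and 293 TPM. That list was uneven among the controls, with sums of 458, 159 and 6340 TPM. Krt8 and Krt18, keratins of simple epithelium, were below the controls in KO-IgG 1 by less. Krt8 was at 1090, 754 and 982 TPM in the controls, 692 TPM in KO-IgG 1 and 938 and 915 TPM in the pair. Krt18 was at 1440, 962 and 1320 TPM, 719 TPM and 1740 and 1710 TPM. The list sum was 5970, 2440 and 4200 TPM in the controls, 1630 TPM in KO-IgG 1 and 5950 and 5860 TPM in the pair, so KO-IgG 1 was the lowest and CTRL-IgG 2 the next lowest.

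The genes by which KO-IgG 1 exceeded the pair most were of several kinds. Among the 12 largest of 9162 genes considered were Chga, the neuroendocrine granule protein chromogranin A, at 79.9 TPM against 0.997 and 1.06 TPM, and Syt13, a synaptotagmin, at 71.0 TPM against 2.51 and 1.56 TPM. The controls had 0.931 to 5.29 TPM of Chga. Sod3, the extracellular superoxide dismutase, was at 99.9 TPM against 2.01 and 1.91 TPM, and Ccn5, a matricellular protein, at 106 TPM against 1.8 and 0.65 TPM. Ccn5 was also high in CTRL-IgG 2, at 91.3 TPM, and low in the other controls, at 15 and 7.33 TPM. Single receptor segments were present too: Trbv1, a T cell receptor beta variable segment, was at 47.5 TPM in KO-IgG 1 and at 0 and 0.839 TPM in the pair, and Igkv3-2, an immunoglobulin kappa variable segment, at 29.4 TPM against 0.495 and 0 TPM. Both segments belong to families of similar sequence. Vim, the mesenchymal intermediate filament vimentin, was at 1550 to 2870 TPM in the controls, 2190 TPM in KO-IgG 1 and 547 and 491 TPM in the pair, so here the pair stood apart from the controls.

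**Figure D4:**
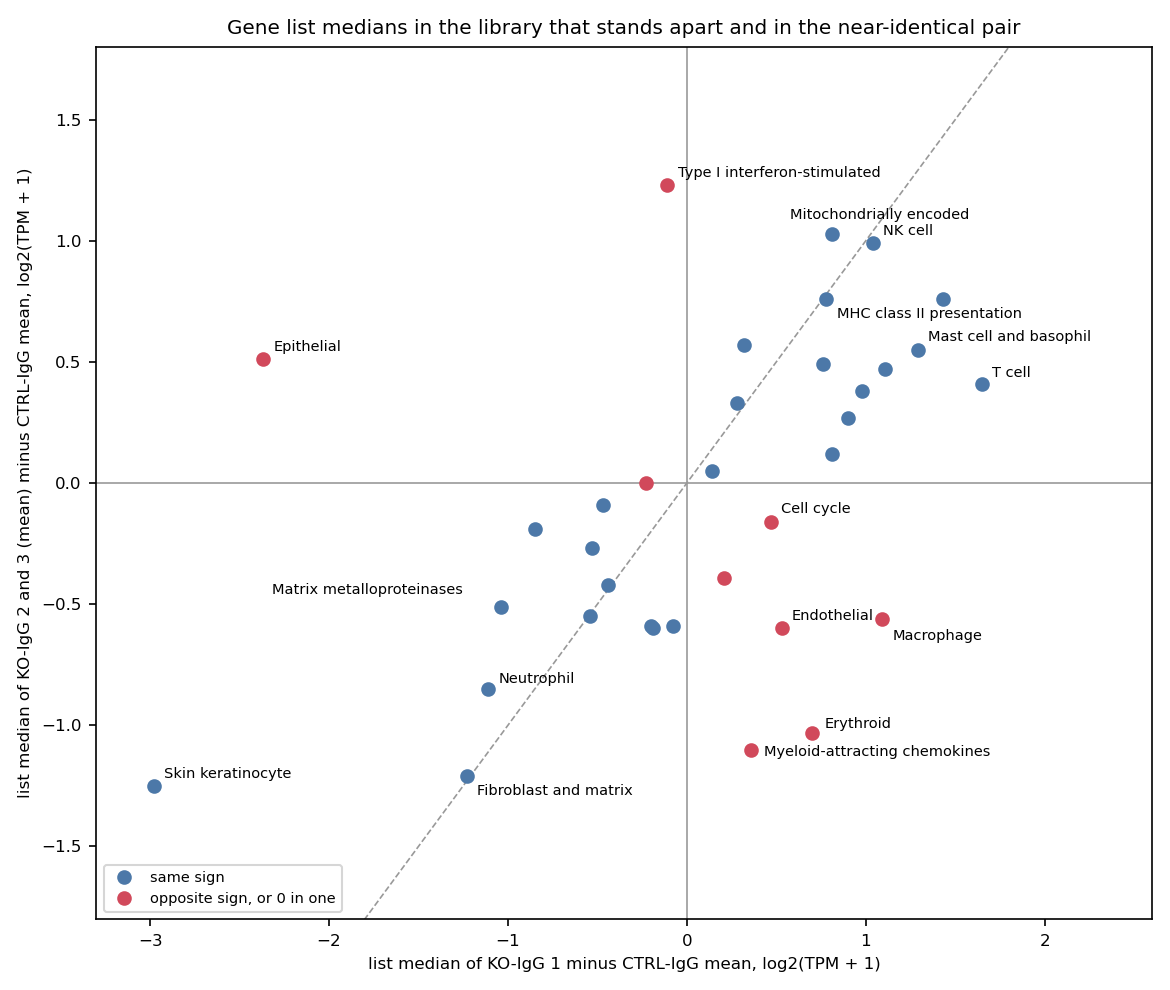
Median difference from the CTRL-IgG mean, on the log2(TPM + 1) scale, of 35 gene lists in KO-IgG 1 (horizontal axis) against the mean of KO-IgG 2 and 3 (vertical axis), with the line of equality dashed. Lists in red differ in sign or lie at 0 in 1 of them, among them the type I interferon (−0.11 and 1.23), epithelial (−2.37 and 0.51) and macrophage (1.09 and −0.56) lists, while NK (1.04 and 0.99) and fibroblast (−1.23 and −1.21) lists lie near the line.

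By position, genes of chromosome 3 were lower in every library labelled KO. This chromosome was singled out after values were seen, so no test is given. Its 661 tested genes had a median difference of −0.29, against −0.13 to 0.10 on the other 19 nuclear chromosomes, and 77.0% of them were negative against 53.7% of all genes. On chromosome 3, 104 genes (15.7%) were lower in all 3 KO-IgG libraries, against 2.61% to 9.01% on the other chromosomes. Relative to the median of each library, the chromosome 3 median was −0.25, −0.26 and −0.26 in KO-IgG 1, 2 and 3, and −0.35, −0.34 and −0.38 in the KO-ICB libraries, while CTRL libraries were between −0.11 and 0.11. KO-IgG 1 and the pair were thus alike on this chromosome, and all 8 windows of 20 Mb along it were negative, from −0.17 to −0.41. S100a8, S100a9, Ufm1 and Tm4sf1 lie on it. Other chromosomes separated KO-IgG 1 from the pair: chromosome 8 was at −0.22 in KO-IgG 1 and at 0.21 and 0.22 in the pair, and chromosome 9, which carries Trex1, at 0.30 in KO-IgG 1 and at 0.00 and 0.02 in the pair. Whether copy number differs between the cells was not tested.

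**Figure D5:**
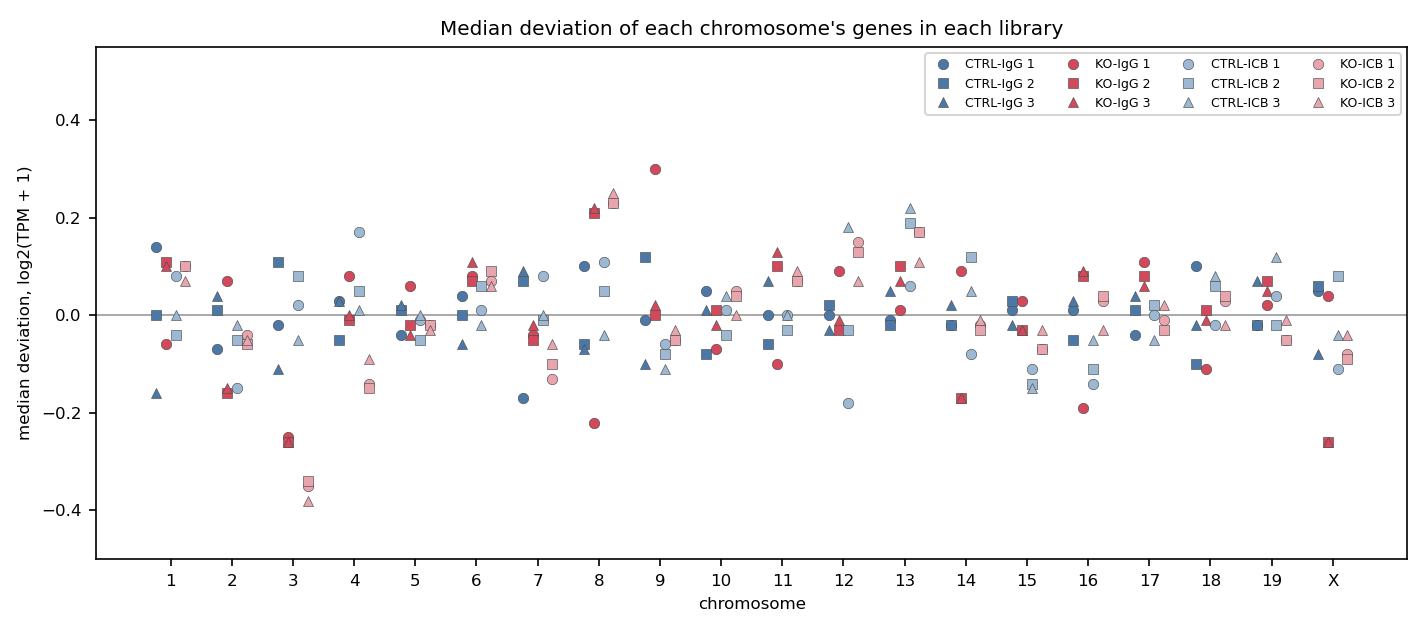
Median difference from the CTRL-IgG mean per chromosome, less the median of the library, on the log2(TPM + 1) scale, in the 12 libraries for 20 chromosomes. Chromosome 3 is negative in all 6 KO libraries (−0.25 to −0.38), and chromosomes 8 and 9 differ in sign or size between KO-IgG 1 and the pair.

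The ICB groups share no library with the IgG groups. KO-ICB 1 and 2 are near-identical, so separation of all 6 ICB libraries is again in effect 2 samples from 3. It held for 15.2% of all genes upward and 14.3% downward. Of the 759 genes higher in all KO-IgG libraries, 656 (86.4%) had a positive KO minus CTRL difference under ICB, against 46.5% of all genes. Of the 787 lower genes, 656 (83.4%) were negative, against 53.4% of all genes. Separation of all 6 libraries under both antibodies held for 322 higher genes, which are 42.4% of the IgG genes and 15.3% of the 2109 ICB genes, and for 286 lower genes (36.3% and 14.4% of 1981). Separation in opposite directions held for 9 genes higher and 25 lower under IgG. Of the 30 genes described first, all 15 higher genes were positive under ICB, 12 without overlap, and 14 of the 15 lower genes were negative, 9 without overlap. Msln differed by −1.01 under ICB, S100a8 by −2.58 and Ccl5 by 1.75. The Ccl5 values were 49.9, 60.0 and 26.6 TPM in CTRL-ICB and 151, 142 and 149 TPM in KO-ICB, again without overlap.

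The test of whether the difference itself changed with the antibody called 0 of 13886 genes by limma with 10 samples, with 196 at an unadjusted p under 0.05 and a smallest adjusted p of 0.301. Over 12 libraries it called 1 gene, Tnnc2, a troponin of fast skeletal muscle, which was at 0 TPM in all KO-IgG libraries and at 11.2 to 13.5 TPM in KO-ICB. Among the genes described first, Add2 and Ubd had the smallest limma interaction p, 0.00124 and 0.00702 before adjustment. Those genes were picked by their IgG difference, which is part of the interaction, so the choice favours a small p. Neither passed after adjustment. Add2 was at 1.32 to 2.88 TPM in CTRL-ICB and 1.66 to 3.95 TPM in KO-ICB. Its low KO-IgG level was thus not seen in KO-ICB, and every CTRL-ICB library was below every CTRL-IgG library. Ubd was at 30.8 to 81.6 TPM in CTRL-ICB and 53.8 to 65.7 TPM in KO-ICB, and those groups overlapped. The type I interferon list gave 37 of 41 genes higher in all 3 KO-ICB libraries, with a median of 1.14, which is close to the median of the IgG pair and unlike KO-IgG 1.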

How the data were processed

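The authors deposited a table of TPM per gene, made with kallisto on the GRCm38 build per the submitters' processing notes; the sources used here give neither its version nor the transcript set. Total RNA was taken with a column kit and sequenced as polyA libraries, per the labels' protocols. The 13886 genes reaching 1 TPM in 3 or more of 12 libraries were kept, and log2(TPM + 1) was fitted with limma 3.58.1 (trend and robust; R 4.3.3) over all 4 groups, with Benjamini-Hochberg adjustment over all genes and a threshold of 0.05. KO-IgG 2 and 3, and KO-ICB 1 and 2, entered as their means. The fit was tested on simulated data. The alternatives were 12 libraries, another pseudocount, other filters, quantile and median scaling, no trend, a replicate block, the IgG groups alone and samples left out.

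The genes named were those with the smallest p among genes whose 6 IgG libraries did not overlap (15 each way), every gene called over 12 libraries, the 5 members of each list with the smallest p and its defining members, and the 12 largest differences each way between KO-IgG 1 and the pair. Members outside that rule (among them Isg15, Irf7, Usp18, Ddx60, Cxcl10, Ciita, B2m, Sting1, Cgas, Gzmc, Gzmd, Gzmf, Lcn2, Mmp3, mt-Co2, Krt8, Krt18 and Atrip) were picked once values had been seen. Members and lists were chosen with earlier results of these data known. Counts of list members are descriptions, with no test of a list. Positions are from GENCODE M21 on GRCm38, which placed 13599 genes (97.9%).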

Additional observations from a re-analysis of the deposited data

How the results depend on the processing

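Of the 30 genes given above by smallest p, each kept its direction in every alternative that gave a value for it, at most 22. The count of genes past the adjusted p threshold in KO-IgG against CTRL-IgG, 0 with 10 samples, was also 0 with quantile scaling, median centring, a pseudocount of 0.1, a filter of 5 TPM and no trend. It was 16 over 12 libraries, 10 (9 higher, 1 lower) with no filter, which tests more genes near 0, and 1 with only the IgG groups. Leaving out 1 IgG sample of the 10 gave 0 to 44, the highest without the averaged pair, where KO-IgG 1 is taken to have the spread of the other groups. Leaving out 1 IgG library of the 12 gave 0 to 729, the highest without KO-IgG 1 and 19 without CTRL-IgG 2; all of these but KO-IgG 1 were added after seeing the data. The interaction count, 0 with 10 samples, was 1 over 12 libraries, 9 with no filter and 7 without the averaged pair, and 1 in each fit over libraries that left out KO-IgG 1 or a control. Genes whose groups do not overlap, 1546 in all, were 5880 without KO-IgG 1. The cause of these changes was not tested.

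Replicate numbers did not pair the samples: deviations of KO-IgG and CTRL-IgG libraries with the same number correlated at −0.118, −0.364 and 0.19. With the replicate block over 12 libraries, 2 genes (Msln and Tnn) were called against 16 without it, and the interaction count was 0.

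Of 35 list medians, 25 kept their sign in all alternatives. The type I interferon median, 0.58, was −0.11 without the averaged pair and 1.23 without KO-IgG 1, and the epithelial median, −0.73, was 0.51 without KO-IgG 1.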

Other observations

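Fabp4, a fatty acid carrier of adipocytes and macrophages, was at 15.3, 16.3 and 14.8 TPM in CTRL-IgG and at 98.3, 34.5 and 31.3 TPM in KO-IgG, and at 16.7 to 24.1 TPM in KO-ICB against 20.7 to 42.6 TPM in CTRL-ICB. Its limma interaction p was 0.00327 before adjustment, and no gene passed after adjustment with 10 samples. Keratinocyte genes were uneven among controls: their summed TPM was 458, 159 and 6340 in CTRL-IgG and 11, 500 and 477 in KO-IgG, so 1 control library carried most of the signal. Twist2, a mesenchymal transcription factor, was at 12 to 25.1 TPM in CTRL-IgG and at 2.62, 11.7 and 11.4 TPM in KO-IgG.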
